A study of Rattus norvegicus with 6 samples.

Results

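The chaperones and folding enzymes of the endoplasmic reticulum (ER) were followed through 10 named genes in RNA sequencing of rat H9C2 cells: Hspa5, Hsp90b1, Pdia3, Pdia4, Pdia6, Calr, Canx, Hyou1, Creld2 and Manf. Members were the rows of the deposited expression table that carry these gene names, and each name matched 1 row, giving 10 of 32623 rows. All 10 passed the level set for testing, at least 1 FPKM in at least 2 libraries, as did 12229 rows in all. FPKM is a count scaled to gene length and library size, so it allows levels to be compared between genes. H9C2 is an established line grown out of embryonic rat heart, and all cells were grown in medium with 1 g/L glucose. For control cells (Ctrl) no added glucose or exposure is listed. High glucose cells (HG) received 33 mM glucose for 8 h. The third group (siFGFR1+HG) was transfected with a small interfering RNA against Fgfr1, an FGF receptor gene, and then received the same glucose exposure. Each of the 3 groups held 2 libraries, and whether these were separate cultures is not stated, so p-values reflect no more than the spread between libraries, which may be technical.

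Library totals ran from 46960084 to 75021470 counts. The siRNA target Fgfr1 had 0 and 4 counts for Ctrl, 0 and 0 for HG, and 4 and 0 for siFGFR1+HG, so these data do not show whether the knockdown took place. A control siRNA is named for no group, and whether Ctrl and HG were transfected is not stated, so the siRNA and the transfection cannot be told apart, and no osmotic control for glucose is named. Of the 9 skeletal myoblast and muscle markers, 7 passed the level for testing, with Myod1 at 62.9 to 67.4 FPKM, while Myf5 had 0 counts throughout. Of the 7 cardiomyocyte markers 2 passed, the transcription factor genes Gata4 and Nkx2-5 at 3.83 to 5.40 FPKM, while the sarcomere and secretory markers Myh6, Myh7, Tnni3 and Nppa stayed at or below 0.302 FPKM. The endothelial markers summed to at most 0.311 FPKM, none of them tested. Of the 5 epithelial markers Epcam had 0 counts and Krt8 stood at 18.3 to 26.1 FPKM. Of the 6 macrophage markers Ptprc had 0 counts, Cd14 stood at 8.97 to 11.4 FPKM, and Cd68 at 0.423 to 1.31 FPKM.

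Proteins bound for the cell surface or for secretion fold in the ER. Hspa5 (BiP, GRP78), an Hsp70-class chaperone, holds unfolded chains, the lectins calnexin and calreticulin retain glycoproteins until their sugars are trimmed, and disulfide isomerases form and correct cysteine bridges. When unfolded protein accumulates, the sensors ATF6, IRE1 and PERK start the unfolded protein response, and ATF6 and the IRE1 product XBP1 are known in mammalian cells to raise transcription of chaperone genes through a promoter sequence called the ER stress response element (ERSE).

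The ERSE is shown here because it is a known control sequence of genes of this kind. It was searched as CCAAT, any 9 bases and CCACG, on both strands in the 250 bases before each annotated start, in RefSeq promoters of rat build GRCr8. A promoter was matched by symbol for 7 of the 10 genes, all but Pdia3, Pdia6 and Manf. The element was present in 5 of these 7, Hspa5, Hsp90b1, Calr, Canx and Creld2. Across all promoters it was present in 21 of 27457 genes (0.0765%), these 5 included. By window it was present in 22 of all 33469 windows of the same length (0.0657%). Hsp90b1 held 2 copies, 1 on each strand. The upstream window of the first of 2 annotated Hyou1 starts held the related element ERSE-II, searched as ATTGG, any 1 base and CCACG on both strands, in 2 copies, against 14 of all windows (0.0418%), and also held TGACGTGG, the core of a further element bound by XBP1 and ATF6, found in 0.520% of windows. That core overlaps the first ERSE-II copy. Pdia4 had none of these 3, though it had 3 copies of CCAAT, a box found in 34.0% of windows. The genes were chosen by name with their known roles in view, so the shares are a description, and a match is not evidence of binding in these cells. Capitals in the upstream sequences below mark ERSE, or ERSE-II in Hyou1, and each runs 5′ to 3′ on the strand of the gene. They show Hspa5 and Creld2, whose levels differed in HG, and Calr, which was lower in siFGFR1+HG than in Ctrl. They also show Hsp90b1 and Hyou1, which passed the main test in none of the 3 comparisons.
Hspa5 promoter (GRCr8 chr3:38452766-38453015, plus strand): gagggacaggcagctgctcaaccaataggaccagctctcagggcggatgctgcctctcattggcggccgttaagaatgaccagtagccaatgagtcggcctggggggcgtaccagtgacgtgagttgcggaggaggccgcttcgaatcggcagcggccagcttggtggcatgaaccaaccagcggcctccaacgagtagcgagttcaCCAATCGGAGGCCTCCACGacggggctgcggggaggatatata
Creld2 promoter (GRCr8 chr7:121789134-121789383, plus strand): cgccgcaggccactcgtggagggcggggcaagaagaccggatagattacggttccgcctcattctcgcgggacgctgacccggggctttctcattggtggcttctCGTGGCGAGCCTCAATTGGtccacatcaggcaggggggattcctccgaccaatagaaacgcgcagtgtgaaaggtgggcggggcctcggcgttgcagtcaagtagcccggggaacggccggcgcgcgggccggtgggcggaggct
Calr promoter (GRCr8 chr19:40213117-40213366, plus strand): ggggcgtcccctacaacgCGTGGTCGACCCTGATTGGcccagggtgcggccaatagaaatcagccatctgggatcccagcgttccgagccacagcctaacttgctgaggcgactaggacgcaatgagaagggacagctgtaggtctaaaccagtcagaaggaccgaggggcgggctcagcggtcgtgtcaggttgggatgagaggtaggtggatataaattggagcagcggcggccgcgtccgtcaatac
Hsp90b1 promoter (GRCr8 chr7:23012294-23012543, minus strand): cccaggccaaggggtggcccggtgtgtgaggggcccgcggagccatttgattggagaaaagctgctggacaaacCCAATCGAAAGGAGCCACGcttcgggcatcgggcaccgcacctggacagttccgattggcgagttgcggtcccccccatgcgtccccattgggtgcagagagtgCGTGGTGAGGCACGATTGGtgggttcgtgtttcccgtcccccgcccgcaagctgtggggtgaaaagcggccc
Hyou1 promoter (GRCr8 chr8:53602632-53602881, plus strand): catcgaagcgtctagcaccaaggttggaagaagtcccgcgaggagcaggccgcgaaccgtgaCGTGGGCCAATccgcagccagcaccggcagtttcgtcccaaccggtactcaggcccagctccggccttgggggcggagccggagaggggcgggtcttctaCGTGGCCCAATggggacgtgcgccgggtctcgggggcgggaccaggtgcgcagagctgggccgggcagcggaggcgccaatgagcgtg
In Hspa5 the element lies 43 to 25 bases before the start and reads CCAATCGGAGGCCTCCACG. In Creld2 it lies on the other strand, 145 to 127 bases before the start, and in Calr, also on the other strand, 232 to 214 bases before it. Of the 5 genes with the element, Hsp90b1 and Canx passed the test in none of the 3 comparisons.

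**Figure D1:**
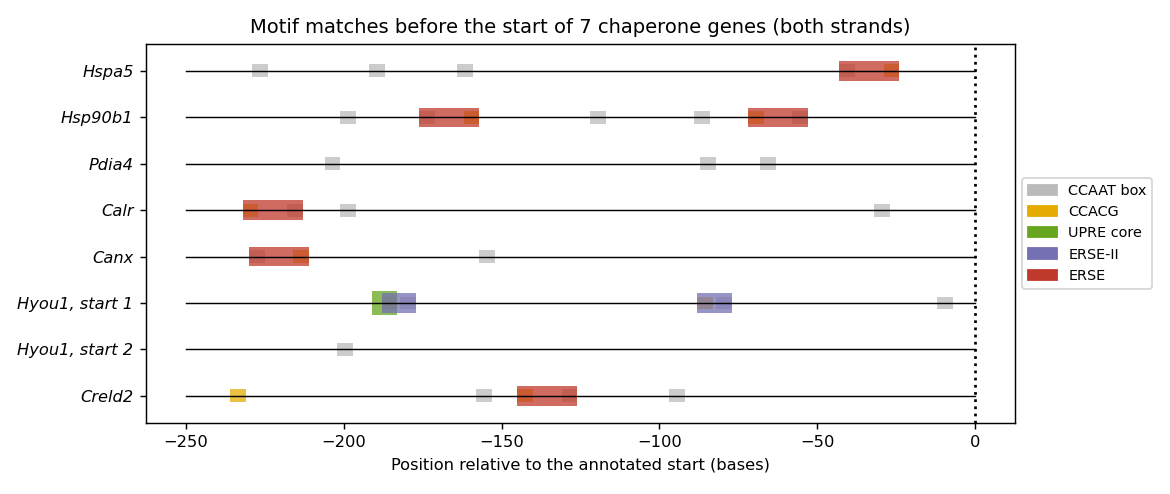
Matches of 5 motifs in the 250 bases before each annotated start of 7 chaperone genes (Hyou1 has 2 starts); the x axis is the position in bases relative to the start, and coloured boxes are matches on either strand. ERSE is present in 5 genes, with 2 copies in Hsp90b1, and ERSE-II in Hyou1.

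These genes were among the more abundant transcripts of the cells, though their ranks by mean FPKM ran from 56th (Calr) to 3022nd (Creld2). Their summed count was 0.706% to 0.761% of all counts in a library. Calr, which encodes calreticulin, stood first in every library at 1036 to 1170 FPKM and ranked 56th of the 12229 tested genes by mean FPKM. Pdia3 followed at 540 to 597 FPKM. Hsp90b1 and Hspa5 came next, with ranges that overlapped: Hsp90b1 was the higher in the Ctrl and siFGFR1+HG libraries and Hspa5 in both HG libraries. Below them the order was Pdia6, Pdia4, Canx, Manf, Hyou1 and Creld2 in all 6 libraries, and the range of each stood clear of the next. Creld2, the least abundant, had 23.7 to 34.6 FPKM. Over the 6 libraries Creld2 varied most, by 1.46-fold between the lowest and the highest library, followed by Manf at 1.43-fold and Hspa5 at 1.31-fold. The other 7 genes varied by 1.04-fold (Canx) to 1.13-fold (Calr).

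**Figure D2:**
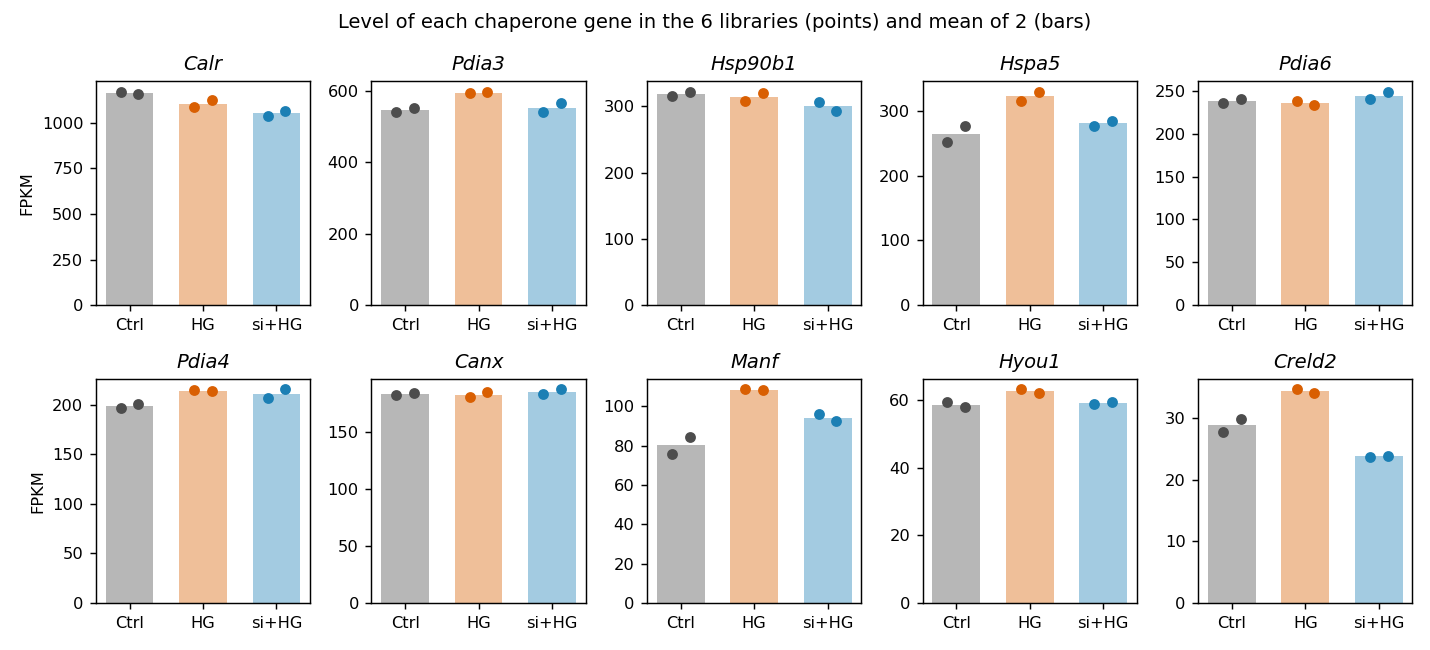
FPKM of each of the 10 chaperone genes (y axis, from 0) in Ctrl, HG and siFGFR1+HG (written si+HG); points are the 2 libraries of a group and bars their mean, with genes in order of mean level. Hspa5, Manf and Creld2 are highest in HG, and Creld2 is lowest in siFGFR1+HG.

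HG was set against Ctrl to ask which chaperone transcripts differ after high glucose. Hspa5, Manf and Creld2 rose, by 1.21-fold, 1.34-fold and 1.18-fold, and none of the 10 was called lower. By the quasi-likelihood test of edgeR, at a Benjamini-Hochberg adjusted p under 0.05 over all tested genes, 3 of 10 members were called higher and 0 lower, against 5.81% of all tested genes called higher and 7.85% lower. Calls on log2(FPKM + 1) with limma turned the split over all genes from 710 higher and 960 lower to 688 higher and 506 lower. The median log2 fold change was 0.08 over the members and 0.0033 over all genes tested. In the deposited FPKM values both HG libraries lay above both Ctrl libraries for 6 members, against 32.9% of all tested genes, and below them for 1, against 27.3% (60.1% in either direction). Total FPKM was 542620 and 547166 for HG and 526116 to 526899 for the other libraries, so FPKM comparisons with HG carry this difference.

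siFGFR1+HG was then set against HG, which asks what differs in high glucose once the siRNA has been given. The same 3 genes, Creld2, Hspa5 and Manf, were lower in siFGFR1+HG, by 1.43-fold, 1.14-fold and 1.14-fold, and none of the 10 was called higher. Here 15.9% of all tested genes were called lower and 14.1% higher. The median log2 fold change was -0.06 over the members and -0.01 over all genes. FPKM values of the siFGFR1+HG libraries lay below both HG libraries for 7 members, against 36.1% of all tested genes, and above for 1, against 30.4% (66.5% in either direction). This comparison shares its HG libraries with the first, so opposite directions in these 2 comparisons are not independent.

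Against Ctrl, siFGFR1+HG had higher Manf, by 1.17-fold, and lower Creld2 and Calr, by 1.21-fold and 1.11-fold. That was 1 member higher and 2 lower, with 9.82% of all tested genes called higher and 12.4% lower. The median log2 fold change was 0.01 over the members and 0.01 over all genes. Groups did not overlap in FPKM for 5 members, 2 higher and 3 lower, against 32.9% of all tested genes higher, 30.9% lower and 63.8% in either direction. The 3 genes called in each comparison stand against 13.7%, 29.9% and 22.3% of all genes called in either direction in HG against Ctrl, siFGFR1+HG against HG and siFGFR1+HG against Ctrl. In a culture measured in bulk, fewer cells making a transcript and less of it per cell cannot be told apart.

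Markers of cell identity differed between the groups as well. The 9 muscle markers summed to 392 to 401 FPKM in Ctrl, 373 to 374 in HG and 308 to 310 in siFGFR1+HG, and 4 of 7 tested members were lower in siFGFR1+HG than in HG and 1 higher. The 7 fibroblast markers, mostly collagen I and III transcripts, summed to 3988 to 4248, 3798 to 3835 and 5117 to 5181 FPKM, with 5 of 5 tested members higher in siFGFR1+HG than in HG. The fibroblast markers Pdgfra and Dcn stayed at or below 0.101 FPKM. In HG against Ctrl, 4 of 5 tested fibroblast markers, 2 of 7 muscle markers and the 1 tested epithelial marker, Krt8, were lower, and 0 in these lists were higher. The part of these shifts in the chaperone results was not tested.

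**Figure D3:**
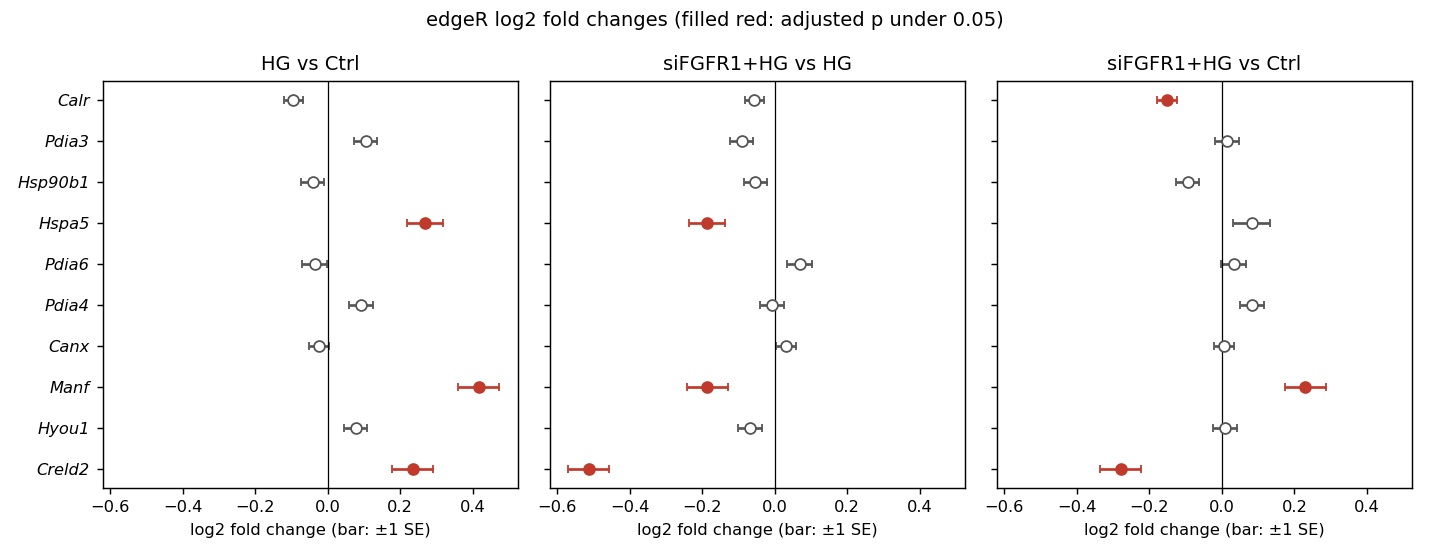
Log2 fold change of each chaperone gene from edgeR (x axis; bars are ±1 standard error) in the 3 comparisons, with filled red points for an adjusted p under 0.05. Hspa5, Manf and Creld2 lie to the right in HG against Ctrl and to the left in siFGFR1+HG against HG, and most other genes lie within 0.11 of 0.

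Hspa5 is the main Hsp70-class chaperone of the ER and, by binding the stress sensors, also restrains the unfolded protein response. It lies on chromosome 3 at 13838304 to 13842762 on the plus strand, in the coordinates of the deposited table, whose genome build is not certain. Its level was 251 and 277 FPKM for Ctrl, 316 and 329 for HG, and 277 and 285 for siFGFR1+HG. Both HG libraries were above the other 4, and the siFGFR1+HG libraries overlapped the upper Ctrl library. HG exceeded Ctrl by 0.27 ± 0.05 on the log2 scale (SE, n = 2 per group; edgeR adjusted p = 0.0197), with a range of adjusted p = 4.73e-07 to 0.0886 over 16 alternatives, of which 13 kept the call. siFGFR1+HG was lower than HG by log2 -0.19 ± 0.05 (edgeR adjusted p = 0.0325), and 11 of 16 alternatives kept this call, with adjusted p = 0.000624 to 0.132. The calls were lost without Ctrl replicate 1 or either HG library in the first comparison, and without any of the HG or siFGFR1+HG libraries in the second. The second was also lost with upper-quartile scaling and all libraries kept (adjusted p = 0.0530). Against Ctrl, siFGFR1+HG did not pass (log2 0.08 ± 0.05, edgeR adjusted p = 0.298).

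Hyou1 (GRP170) is a large relative of Hsp70 that exchanges nucleotide on Hspa5. Its level was 59.5 and 57.8 FPKM for Ctrl, 63.1 and 62.1 for HG, and 58.9 and 59.4 for siFGFR1+HG. The HG libraries were the 2 highest, yet neither step passed the test: log2 0.08 ± 0.03 in HG against Ctrl (edgeR adjusted p = 0.177) and -0.07 ± 0.03 in siFGFR1+HG against HG (edgeR adjusted p = 0.165). Hyou1 was called in none of 16 alternatives in any comparison.

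Hsp90b1 (GRP94), the Hsp90-class chaperone of the ER, folds integrins and Toll-like receptors among other clients. Its level was 316 and 322 FPKM for Ctrl, 308 and 320 for HG, and 307 and 293 for siFGFR1+HG. In FPKM the groups overlapped between Ctrl and HG, and both siFGFR1+HG libraries were lower than all other libraries. In log2 counts scaled to library size and standardized over the 6 libraries, this did not hold. There HG replicate 1 (-0.446) lay below siFGFR1+HG replicate 1 (-0.420). The log2 fold change against Ctrl was -0.04 ± 0.03 for HG and -0.09 ± 0.03 for siFGFR1+HG, the latter with an edgeR adjusted p = 0.0775 and a call in 1 of 16 alternatives, DESeq2.

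Calr and Canx encode calreticulin, soluble in the ER lumen, and calnexin, its membrane-bound counterpart, the 2 lectins that hold glycoproteins for folding. Calr (chromosome 19 in the deposited table, 25956771 to 25961666, minus strand) had 1170 and 1156 FPKM for Ctrl, 1083 and 1122 for HG, and 1036 and 1066 for siFGFR1+HG. The 3 groups did not overlap, with Ctrl highest and siFGFR1+HG lowest. Only siFGFR1+HG against Ctrl passed (log2 -0.15 ± 0.03, edgeR adjusted p = 0.0102), with calls in 15 of 16 alternatives; without Ctrl replicate 1 the adjusted p was 0.0505, at the upper end of a range from 7.66e-06 to 0.0505. HG against Ctrl did not pass (-0.10 ± 0.03, edgeR adjusted p = 0.0647), though DESeq2 called it, and neither did siFGFR1+HG against HG (-0.06 ± 0.03, edgeR adjusted p = 0.164). Calr made up 38.3% and 37.2% of the summed FPKM of the 10 genes for Ctrl, 34.5% and 35.0% for HG, and 34.9% and 35.1% for siFGFR1+HG. Canx had 183 and 185 FPKM for Ctrl, 181 and 186 for HG, and 183 and 188 for siFGFR1+HG, the narrowest range of the 10 genes. Its 3 log2 fold changes lay between -0.02 and 0.03, each with an SE of 0.03, and all groups overlapped.

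The disulfide isomerases Pdia3 (ERp57), Pdia4 (ERp72) and Pdia6 (P5) were called by the main edgeR fit in none of the 3 comparisons. Pdia3 works with calnexin and calreticulin on glycoproteins, and had 540 and 552 FPKM for Ctrl, 592 and 597 for HG, and 540 and 566 for siFGFR1+HG. Both HG libraries were above the other 4. The log2 fold change was 0.11 ± 0.03 in HG against Ctrl (edgeR adjusted p = 0.0788) and -0.09 ± 0.03 in siFGFR1+HG against HG (edgeR adjusted p = 0.0765), and 3 of 16 alternatives called each. Pdia4, an isomerase with an extra thioredoxin-like domain, had 197 and 201 FPKM for Ctrl, 216 and 214 for HG, and 207 and 216 for siFGFR1+HG. Its Ctrl libraries were the 2 lowest, and HG and siFGFR1+HG overlapped (log2 -0.01 ± 0.03). Over Ctrl the log2 fold change was 0.09 ± 0.03 in HG (edgeR adjusted p = 0.1255) and 0.08 ± 0.03 in siFGFR1+HG (edgeR adjusted p = 0.1262). The latter was called in 1 of 16 alternatives, DESeq2 (adjusted p = 0.0474). Pdia6, which also binds the IRE1 sensor, had 236 and 241 FPKM for Ctrl, 238 and 233 for HG, and 240 and 249 for siFGFR1+HG. Its log2 fold change was 0.07 ± 0.03 in siFGFR1+HG against HG (edgeR adjusted p = 0.186).

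Manf and Creld2 encode small ER proteins that are induced and secreted under ER stress. Manf binds the nucleotide-binding domain of Hspa5 and acts as a trophic factor for neurons, and Creld2 is a disulfide isomerase-like protein with EGF-type repeats. Manf (chromosome 8 in the deposited table, 115623178 to 115626380, minus strand) had 75.9 and 84.3 FPKM for Ctrl, 109 and 108 for HG, and 96.3 and 92.4 for siFGFR1+HG. The 3 groups did not overlap, with HG highest and Ctrl lowest. HG exceeded Ctrl by log2 0.42 ± 0.06 (edgeR adjusted p = 0.00830), and all 16 alternatives kept this call, with adjusted p = 1.67e-08 to 0.0366. Of the 12229 tested genes, 88.2% had a smaller absolute log2 fold change. siFGFR1+HG was lower than HG by log2 -0.19 ± 0.06 (edgeR adjusted p = 0.0492), a call kept in 6 of 16 alternatives, with adjusted p = 0.0212 to 0.187, and lost without any of the HG or siFGFR1+HG libraries. With all libraries kept, the call against HG was also lost in edgeR with RLE or upper-quartile scaling (adjusted p = 0.0564 and 0.07315). The filterByExpr filter (edgeR adjusted p = 0.0561) and the replicate block (edgeR adjusted p = 0.0730) lost it too. So did limma on log2(FPKM + 1) and log2(FPKM + 0.1) (adjusted p = 0.0511 and 0.0518). siFGFR1+HG exceeded Ctrl by log2 0.23 ± 0.06 (edgeR adjusted p = 0.0317), a call kept in 11 of 16, with a lowest adjusted p of 0.00284. That call was lost without Ctrl replicate 1 or either siFGFR1+HG library. It was also lost with the replicate block (adjusted p = 0.0518) or the 2 groups alone (adjusted p = 0.05002).

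Creld2 (chromosome 7 in the deposited table, 129812789 to 129819634, plus strand) had 27.7 and 29.9 FPKM for Ctrl, 34.6 and 34.0 for HG, and 23.7 and 23.9 for siFGFR1+HG. The groups did not overlap, with HG highest and siFGFR1+HG lowest, below Ctrl. The fall from HG to siFGFR1+HG was the largest change among the 10 genes in the 3 comparisons (log2 -0.51 ± 0.06, edgeR adjusted p = 0.00143). It was called in all 16 alternatives, with adjusted p = 1.19e-09 to 0.0141 and log2 fold changes of -0.53 to -0.49. Against Ctrl, siFGFR1+HG was lower by log2 -0.28 ± 0.06 (edgeR adjusted p = 0.0158), with 13 of 16 alternatives keeping the call (adjusted p = 0.00210 to 0.0847), which was lost without Ctrl replicate 2 or either siFGFR1+HG library. The rise in HG over Ctrl was log2 0.23 ± 0.06 (edgeR adjusted p = 0.0409) and held in 8 of 16 alternatives, with a lowest adjusted p of 0.0173 (DESeq2). It was lost when any 1 of the 6 libraries was left out. It was also lost with the replicate block (adjusted p = 0.06305) or the 2 groups alone (adjusted p = 0.0608).

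Against Ctrl, then, siFGFR1+HG did not pass for Hspa5, was higher for Manf and was lower for Creld2. Whether these genes differ from each other in their response was not tested.

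Partners of Hspa5 were followed through a list of 9 co-chaperones and nucleotide exchange factors, all tested. The counts of this list and those below stand beside the shares of all tested genes. These were 5.81% called higher and 7.85% lower in HG against Ctrl. For siFGFR1+HG they were 14.1% and 15.9% against HG, and 9.82% and 12.4% against Ctrl. In HG against Ctrl 2 rose and 0 fell, Sdf2 (log2 0.24 ± 0.06), part of an ER complex with the co-chaperone Dnajb11, and Dnajc3 (0.17 ± 0.04), a co-chaperone also called p58IPK. In siFGFR1+HG against HG 3 fell and 0 rose: Dnajc3 (-0.20 ± 0.04), Dnajb11 (-0.21 ± 0.04) and the translocon-bound Sec63 (-0.16 ± 0.04). Against Ctrl 1 was higher and 1 lower. The median log2 fold change of the list was 0.09, -0.12 and -0.05 in the 3 comparisons. Leaving out 1 library brought the counts to 0 called in the first comparison and between 0 and 3 in the second, the 0 without siFGFR1+HG replicate 2. In siFGFR1+HG against Ctrl it left 0 called without Ctrl replicate 2 or either siFGFR1+HG library. Of 12 tested other disulfide isomerases and thiol oxidases, 3 rose in HG and 0 fell. P4hb, the founding protein disulfide isomerase and a subunit of collagen prolyl hydroxylase, went from a mean of 565 to 682 FPKM (log2 0.25 ± 0.02, edgeR adjusted p = 0.00227), Erp29 rose by log2 0.20 ± 0.04 and Erp44 by 0.19 ± 0.05. In siFGFR1+HG against HG Erp29 fell (-0.26 ± 0.04) and 0 rose, while P4hb did not pass (-0.04 ± 0.02) and remained above Ctrl (0.21 ± 0.02, edgeR adjusted p = 0.00145). The median log2 fold change was 0.13 in HG against Ctrl and -0.03 in siFGFR1+HG against HG. In siFGFR1+HG against Ctrl 1 isomerase gene was higher and 1 lower (list median log2 0.12). The 3 called in HG dropped to as few as 1 called when 1 library was left out.

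The translocon list, genes that bring new chains into the ER and cut their signal sequences, had 3 of 19 tested members higher in HG and 0 lower. They were Ssr4 (log2 0.31 ± 0.05) and Ssr2 (0.25 ± 0.04) of the translocon-associated complex and Spcs1 (0.28 ± 0.04) of signal peptidase. Of all tested genes, 5.81% were higher and 7.85% lower in HG against Ctrl. In siFGFR1+HG against HG 9 of 19 fell and 0 rose, against 15.9% and 14.1% of all tested genes. The 9 included Spcs2 (-0.31 ± 0.03), Stt3b, a catalytic subunit of oligosaccharyltransferase (-0.32 ± 0.05), and Spcs1 (-0.24 ± 0.04). The median log2 fold change of the list was -0.14 in that comparison. With 1 library left out the list had 4 to 8 called, the 4 without siFGFR1+HG replicate 2, and in HG against Ctrl it had 0 to 3, the 0 without Ctrl replicate 1. In siFGFR1+HG against Ctrl 1 translocon gene was higher and 3 lower (list median log2 0.0017), against 9.82% and 12.4% of all tested genes. Of 9 tested genes of glycan trimming, 0 rose and 1 fell in HG against Ctrl, and 3 rose and 1 fell in siFGFR1+HG against HG. In siFGFR1+HG against Ctrl 2 of these 9 were higher and 1 lower. Uggt1, the sensor that returns unfolded glycoproteins to calreticulin and calnexin, fell in HG (log2 -0.14 ± 0.03), and Man1b1 (0.21 ± 0.04) and Os9 (0.17 ± 0.03), which mark and recognise glycoproteins for disposal, rose in siFGFR1+HG against HG. With 1 library left out these counts fell to 0 called in HG, and to 0 in siFGFR1+HG against HG without siFGFR1+HG replicate 1.

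Genes of ER-associated degradation, which returns misfolded chains to the cytosol for destruction, had 5 of 17 tested members higher and 2 lower in siFGFR1+HG against HG (median log2 0.09). Of all tested genes, 14.1% were called higher and 15.9% lower there, and 5.81% and 7.85% in HG against Ctrl. Herpud1, a stress-induced organiser of the degradation complex, had means of 51.3 FPKM in Ctrl, 57.6 in HG and 76.9 in siFGFR1+HG. It rose by log2 0.43 ± 0.06 over HG (edgeR adjusted p = 0.00266). Sel1l, its membrane scaffold, rose by 0.47 ± 0.04 (edgeR adjusted p = 0.000903) from 23.9 to 32.8 FPKM. In HG against Ctrl 2 rose, Syvn1 (0.19 ± 0.04) and Derl1 (0.17 ± 0.04), and 0 fell, but 0 were called once any 1 of the 6 libraries was left out. The 7 called in siFGFR1+HG against HG fell to 4 without siFGFR1+HG replicate 1. Against Ctrl siFGFR1+HG had 5 higher and 0 lower, where 9.82% and 12.4% of all tested genes were called.

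Of 15 tested sensors and transcription factors of the unfolded protein response, 2 rose and 2 fell in HG against Ctrl, and 6 rose and 1 fell in siFGFR1+HG against HG (medians log2 0.0085 and 0.10). Without either Ctrl library the first comparison had 1 called. Atf4, the factor translated when PERK is active, had means of 169 FPKM in Ctrl, 199 in HG and 239 in siFGFR1+HG, and both steps passed (log2 0.22 ± 0.03 and 0.28 ± 0.03; edgeR adjusted p = 0.0107 and 0.00187). Atf6 was lower in HG (log2 -0.19 ± 0.04, edgeR adjusted p = 0.0328) and higher in siFGFR1+HG than in HG (0.28 ± 0.04, edgeR adjusted p = 0.00407). Creb3l2, a related membrane-anchored factor, did likewise (-0.41 ± 0.05 and 0.62 ± 0.05), and Ern1, which encodes IRE1, rose in siFGFR1+HG against HG (0.45 ± 0.06) from a mean of 3.52 to 4.75 FPKM. Xbp1 did not pass in any comparison, at means of 30.6, 33.4 and 36.6 FPKM in Ctrl, HG and siFGFR1+HG, nor did Eif2ak3, which encodes PERK. Gene-level values do not show the spliced form of Xbp1. Ddit3, which encodes the stress factor CHOP, rose in siFGFR1+HG against Ctrl (0.41 ± 0.04, edgeR adjusted p = 0.00181). Genes known as targets of ATF4 and CHOP had 8 of 16 higher and 0 lower in HG against Ctrl, 7 higher and 2 lower in siFGFR1+HG against HG, and 10 higher and 0 lower in siFGFR1+HG against Ctrl (medians log2 0.20, 0.14 and 0.32). Asns, which makes asparagine, went from a mean of 40.1 to 52.8 and then 63.0 FPKM over Ctrl, HG and siFGFR1+HG, and Nupr1, a stress-induced chromatin protein, from 56.5 to 91.9 and 110 FPKM. Not all targets climbed at both steps: Cebpb rose in HG (log2 0.99 ± 0.08) and was among those that fell in siFGFR1+HG against HG (-0.71 ± 0.08). With 1 library left out the first of these counts was 4 to 6 called, the 4 without either Ctrl library.

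Collagens pass through the ER, and Col1a1 stood at 3107 to 4127 FPKM. The list of collagen folding and modification genes had 5 of 16 tested members higher in HG and 0 lower, 3 higher and 0 lower in siFGFR1+HG against HG, and 9 higher and 0 lower in siFGFR1+HG against Ctrl (medians log2 0.11, 0.03 and 0.17). In the same order, for this list and the heat shock list below, 5.81% of all tested genes were higher and 7.85% lower, 14.1% and 15.9%, and 9.82% and 12.4%. Serpinh1 (HSP47), the collagen-specific chaperone, had means of 1519, 1630 and 1612 FPKM in Ctrl, HG and siFGFR1+HG, and Kdelr1, a receptor that returns ER chaperones carrying a KDEL-type tail from the Golgi, rose in HG (log2 0.27 ± 0.04) and stayed above Ctrl in siFGFR1+HG (0.27 ± 0.04). With 1 library left out the HG count fell to 0 without Ctrl replicate 1, the siFGFR1+HG against HG count to 0 without siFGFR1+HG replicate 1, and the last count to 5 without Ctrl replicate 2 or siFGFR1+HG replicate 2. Heat shock proteins of the cytosol and mitochondria had 0 higher and 2 lower of 13 in HG against Ctrl and 1 higher and 9 lower in siFGFR1+HG against HG, with Hsp90aa1 at log2 -0.39 ± 0.03 and Hsph1 at -0.39 ± 0.03. Against Ctrl 0 were higher and 9 lower, with a median log2 of -0.30 in each of the last 2 comparisons. The 2 called in HG fell to 0 when any 1 library of either group was left out. Several of these heat shock genes have near-identical copies in the genome, so their counts are uncertain.

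**Figure D4:**
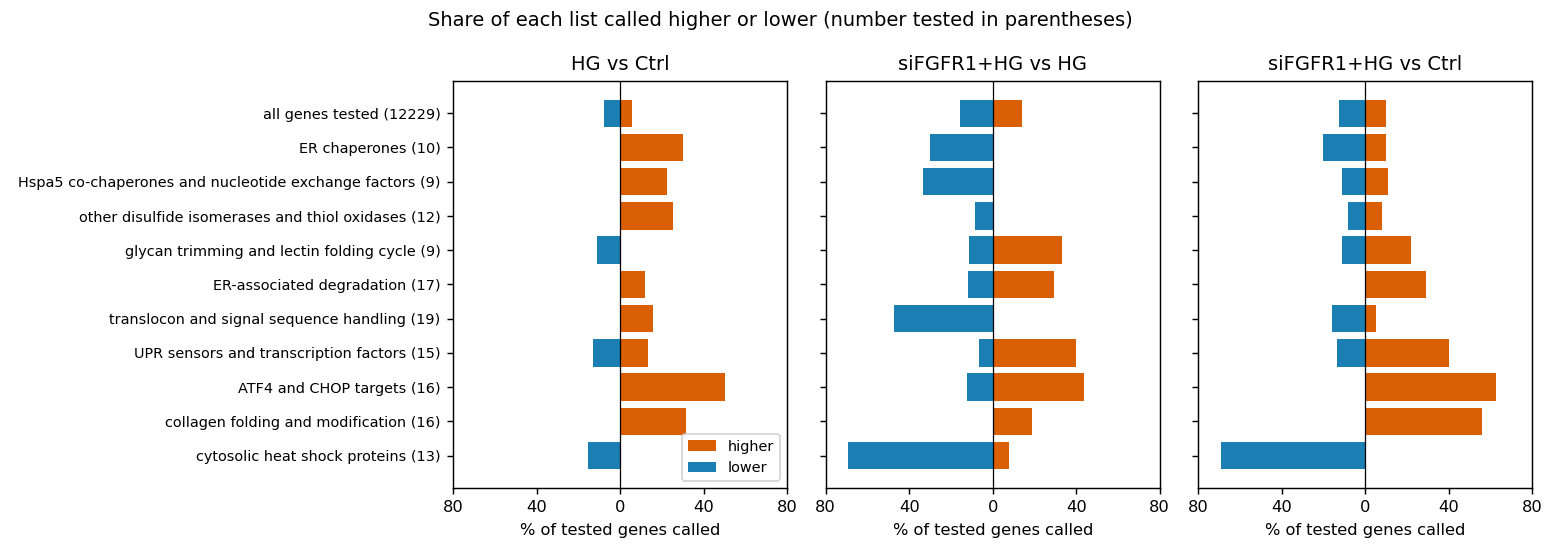
Percent of the tested genes of each list called higher (orange, right) or lower (blue, left) by edgeR in the 3 comparisons, with all 12229 tested genes as the top bar. In siFGFR1+HG against HG, calls for the ER chaperones, the Hspa5 co-chaperones and the translocon list are all lower, and most calls in the degradation and sensor lists are higher. The other disulfide isomerases have 1 lower and 0 higher there, and the cytosolic heat shock proteins 9 of 13 lower and 1 higher.

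In the deposited annotation 162 rows belong to the KEGG pathway of protein processing in the ER, and 148 were tested. Of these, 20 rose and 5 fell in HG against Ctrl, 21 rose and 37 fell in siFGFR1+HG against HG, and 17 rose and 19 fell in siFGFR1+HG against Ctrl. Leaving out the chaperones and the lists above left 74 tested genes, with 11 higher and 1 lower, 8 higher and 18 lower, and 5 higher and 9 lower. In the same order, 5.81% of all tested genes were called higher and 7.85% lower, 14.1% and 15.9%, and 9.82% and 12.4%. These shares also apply to the counts that follow. Across the genome 21 gene symbols had an ERSE in the upstream window, and 16 were tested. Of the 11 that are not members, 1 rose and 0 fell in HG against Ctrl, and 0 rose and 3 fell in siFGFR1+HG against HG. In siFGFR1+HG against Ctrl 0 were higher and 2 lower. Dnajc3 rose in the first, and Dnajc3, Birc5, which encodes the mitotic regulator survivin, and the RNA-binding protein gene Hnrnpa3 fell in the second.

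The genes most like the members were sought by Pearson's r between log2 library-scaled counts (CPM) and the mean standardized profile of the 10 genes over the 6 libraries, among 8567 other genes that averaged 5 FPKM or more. They were Prdx4 (r = 0.989), Pfdn5 (0.984), Nt5c (0.983), Atg101 (0.977) and Ppib (0.976). These are the extremes of 8567 candidates over 6 libraries that share one scaling, and 20 genes had an r above 0.95, so the values are a description. The 10 genes did not share 1 profile: the r of a member with the mean of the other members was 0.96 for Pdia3 and 0.80 for Hspa5, 0.45 to 0.59 for Pdia4, Manf, Hyou1 and Creld2, and below 0 for Calr (-0.20), Hsp90b1 (-0.25), Canx (-0.30) and Pdia6 (-0.48). Prdx4, an ER peroxiredoxin that passes oxidation to disulfide isomerases, had 109 and 113 FPKM for Ctrl, 117 and 121 for HG, and 109 and 114 for siFGFR1+HG. Ppib, cyclophilin B, an ER prolyl isomerase, had 258 and 269 FPKM for Ctrl, 285 and 288 for HG, and 262 and 271 for siFGFR1+HG. For both, the HG libraries were the highest 2, and neither passed the test in HG against Ctrl (log2 0.09 ± 0.04 and 0.10 ± 0.04).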

How the data were processed

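RNA from 6 H9C2 libraries in 3 groups of 2 was analysed from 1 deposited table. Per the submitters' processing notes, the tools were fastp, HISAT2 and StringTie, whose versions are not given in the sources used here. Those notes name the human build GRCh38 while the table's gene identifiers are rat, so the build is not certain. The deposited counts per gene are unscaled. The FPKM columns, also deposited, correct the counts for gene length and sequencing depth, and 0.0001 stands for a count of 0. A count of 4 occurred in 2831 gene and library pairs and counts of 3 and 5 in 1214 and 734, so 1 count may not be 1 fragment. Strand use in counting is not given in the sources used here.

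TMM factors ran from 0.994 to 1.01. A single edgeR 4.0.16 model (R 4.3.3) held all 6 libraries, with a mean for each group and 3 residual degrees of freedom. A call needed an adjusted p (Benjamini-Hochberg over 12229 genes) under 0.05. Standard errors (after ±, for log2 fold changes) were worked back from the F statistic. The median SE was 0.0330 for the members and 0.0869 for all genes in HG against Ctrl. Alternatives used DESeq2 1.42.0, limma 3.58.1, other scalings and filters, a replicate block, the 2 groups alone and each library left out. RefSeq promoters are of build GRCr8.

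The members, lists and tests were chosen with earlier results of these data known. By the naming rule all members are named, and of other lists the 3 genes with the smallest p in a comparison. Atf6, Xbp1, Eif2ak3, Birc5, Hnrnpa3 and the markers with values were chosen after their values were seen.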

Additional observations from a re-analysis of the deposited data

How the results depend on the processing

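The deviations of same-numbered libraries of different groups were close to uncorrelated (0.0595, 0.0514 and -0.0896). Such values do not exclude a shared culture or batch, so whether the numbers pair the samples remains unknown. With the replicate number as a block, 2 members were called in each of the 3 comparisons, against 3 without it, and 1153, 3253 and 2323 genes in HG against Ctrl, siFGFR1+HG against HG and siFGFR1+HG against Ctrl. DESeq2 called 5 members and 2616 genes in HG against Ctrl and 5 members and 3500 genes in siFGFR1+HG against Ctrl, and upper-quartile scaling left 1 member but 3613 genes in siFGFR1+HG against HG. Leaving out 1 library gave 1 to 3 members in each comparison, and 456 to 1302, 2293 to 3247 and 1379 to 2586 genes, against 1670, 3661 and 2723. When a library of a compared group was left out, its partner was assumed to vary like the other groups.

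No called member changed sign. Of members not called, Pdia4 in siFGFR1+HG against HG turned to log2 0.0175 with upper-quartile factors and 0.0047 with only the 2 groups, and ran from -0.0475 to 0.0207 with 1 library left out. In siFGFR1+HG against Ctrl, leaving out 1 library gave -0.0296 to 0.0495 for Pdia3, -0.0188 to 0.0253 for Canx, -0.0144 to 0.0269 for Hyou1 and -0.0032 to 0.0599 for Pdia6. Their signs turned without siFGFR1+HG replicate 2, and for Pdia3 and Canx also without Ctrl replicate 1 (-0.0037 and -0.0025) and for Hyou1 without Ctrl replicate 2. Of the 27 list counts under 16 alternatives, 97 moved by over 1.5 times, 67 of them on leaving out 1 library. The causes were not tested. With 2 libraries a group, a member that was not called is not shown to be unchanged: DESeq2 called Pdia3 (adjusted p = 0.0169) and Calr (adjusted p = 0.00619) in HG against Ctrl, where edgeR did not, with ranges over the alternatives of adjusted p = 0.0169 to 0.267 and 0.00619 to 0.237.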
